A study of Mus musculus with 6 samples.

Results

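RNA levels of 49 genes for collagens, laminins, integrins, matrix proteases and their inhibitors were followed in mProx24, a line of proximal tubular cells from mouse kidney. The genes were taken from a fixed list of names and found through the gene name that the array files give each probe. All 49 had a probe, among 34574 gene names in all, and 17 of them had more than 1 probe, so that 68 probes covered the list.

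The extracellular matrix around a tubule is built mainly as a basement membrane, a sheet of laminin trimers and type IV collagen networks that nidogens and heparan sulphate proteoglycans link together. Cells hold on to it through integrins, receptors made of an alpha and a beta chain that connect the matrix to the actin skeleton. Matrix metalloproteases cleave these proteins and TIMPs block the proteases, and an excess of matrix is a hallmark of the diabetic kidney.

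The study set cells under stimuli of the diabetic kidney beside control cells, with 1 single-colour array for each of 6 conditions, so that no value has a replicate error and no test was possible. Control cells were kept at 20% oxygen and are labelled NG and PBS. The array titled high glucose is labelled 20%, HG and PBS, and the one titled high FFAs (free fatty acids) 20%, NG and Pal. Hypoxia is labelled 1%, NG and PBS, triple stimuli 1%, HG and Pal, and the last condition adds R, for rapamycin, which blocks the growth kinase complex mTORC1. All conditions share the cell line, of C57B6 mice per the labels, and its medium with fetal calf serum. Hypoxia was 1% oxygen for 12 hours, palmitate 150 µM for 9 hours on 0.15% bovine serum albumin, and rapamycin 0.4 µg/ml for 12 hours before palmitate, while no source used here gives the glucose concentrations or the vehicle of rapamycin. The cells are a line grown in culture, and the labels name no second culture of any condition.

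The labels of a pair of arrays disagree. The array that its scanner file labels high glucose holds the values that the deposited value table lists under high FFAs, and is called array A here. Array B has the same 2 labels exchanged. No label was changed, so each result on them is given by array and not by stimulus. Both stimuli are part of the triple stimuli, so the stimulus of array A, whichever it was, is also on the 2 triple arrays. The arrays shared 1 slide, with all 20% oxygen arrays on one row and all 1% arrays on the other, so that oxygen and slide row cannot be told apart. Between 40.3% and 43.8% of spots were well above background on each array and 0 were saturated. On probes printed 10 times, the median SD over spots was 0.0635 on the log2 scale (210 probes), which covers spot error only. Of the proximal tubule markers, Lrp2, Cubn, Aqp1 and Ggt1 were well above background on all 6 arrays (4 of 14), and 8, among them Slc34a1, Slc5a2, Slc22a6 and Hnf4a, on none. Of 8 fibroblast markers 2 were measured on all arrays (Vim and Tagln), while Pdgfrb, Dcn, Lum, Fap and Thy1 were well above background on none. Of 6 macrophage markers 3 were (Cd68, Csf1r and Cd14) and 3 on none (Ptprc, Emr1 and Lyz2), and of 7 endothelial markers Kdr alone was. The epithelial keratins Krt8, Krt18 and Krt19 were measured on all arrays, and Epcam, Cldn3, Cldn4 and Ocln on none.

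Levels below are log2 of the processed signal relative to the 75th percentile of the array, so that 0 is the level of that percentile. They are compared between arrays within a gene and not between genes, since probes differ in how brightly they bind. A gene was called higher or lower at a difference of at least 2-fold, a log2 difference of 1.

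Of the 49 genes, 31 were well above background on all 6 arrays, 6 on some and 12 on none. Among the fibrillar and fibril-associated collagens, Col3a1, Col5a2 and Col12a1 were not well above background on any array, Col1a1 was so on the control array alone and Col1a2 on control and array A, while Col5a1, which helps start fibrils, was measured throughout. Also not above background anywhere were Col8a1, Lama4, the laminin linker Nid1, the integrin chains Itgb4 and Itgb8, and the proteases Mmp2, Mmp9, Mmp10 and Mmp13. Mmp14, a protease anchored in the cell membrane, was thus the 1 metalloprotease of 5 on the list with a level on every array. The other partly measured genes were Col4a3 (array B only), Col4a6 (all but triple stimuli), Nid2 (the 3 arrays at 20% oxygen) and Itga2 (all but array A). The probes of Col4a1 and Mmp9 had spots marked as outliers by the scanner software, 3 of 60 and 5 of 60, so their levels use the unmarked spots and both stay out of the counts below.

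Few of these genes differed 2-fold. On array A, 1 gene of 35 that entered the comparison with control was at least 2-fold lower, the integrin chain Itgb6, and 0 were higher, where 0.909% of all genes were lower and 1.56% higher. Of the 33 genes that were measured on both arrays, 28 (84.8%) had a difference below 0, against 51.0% of all genes, with a median log2 difference of -0.29 against -0.01. Array B stood close to control. There 0 of 36 genes were higher and 0 lower (all genes 0.31% and 0.281%), and the median of those on both arrays was 0.02, the same as over all genes.

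In hypoxia, the laminin chain Lama1 and the integrin chain Itga2 were at least 2-fold higher than in control, 2 of 35 genes, and 0 were lower, where 4.42% of all genes were higher and 0.469% lower. The median of the 32 genes measured on both arrays was 0.09, against -0.02 over all genes. Under triple stimuli 0 of 35 genes were 2-fold higher than in control and 0 lower by the brightest probe (all genes 5.08% and 1.72%), with 20 of 31 below 0 (64.5% against 52.2%) and a median of -0.24. By another probe Sparc and Itga6 were at least 2-fold lower than in control, as given below. Set against hypoxia alone, triple stimuli had 2 of 32 genes lower, Col4a4 and Lama1, and 0 higher (all genes 3.03% and 3.5%). Of 31 genes on both arrays 25 were below 0 in that comparison, 80.6% against 53.2% of all genes, with a median of -0.36 against -0.02.

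With rapamycin added to the triple stimuli, 0 of 32 genes were 2-fold higher than without it and 0 lower (all genes 1.95% and 2.15%). The 31 genes on both arrays lay between -0.39 and 0.67 in that comparison, with 22 below 0 (71.0% against 57.0%). Against control, the array with rapamycin had 1 gene higher, Itga2, and 1 lower, Itgb6, of 35 that entered (all genes 4.54% and 1.78%). Each of these comparisons rests on 1 array a side, and several share the control array.

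**Figure D1:**
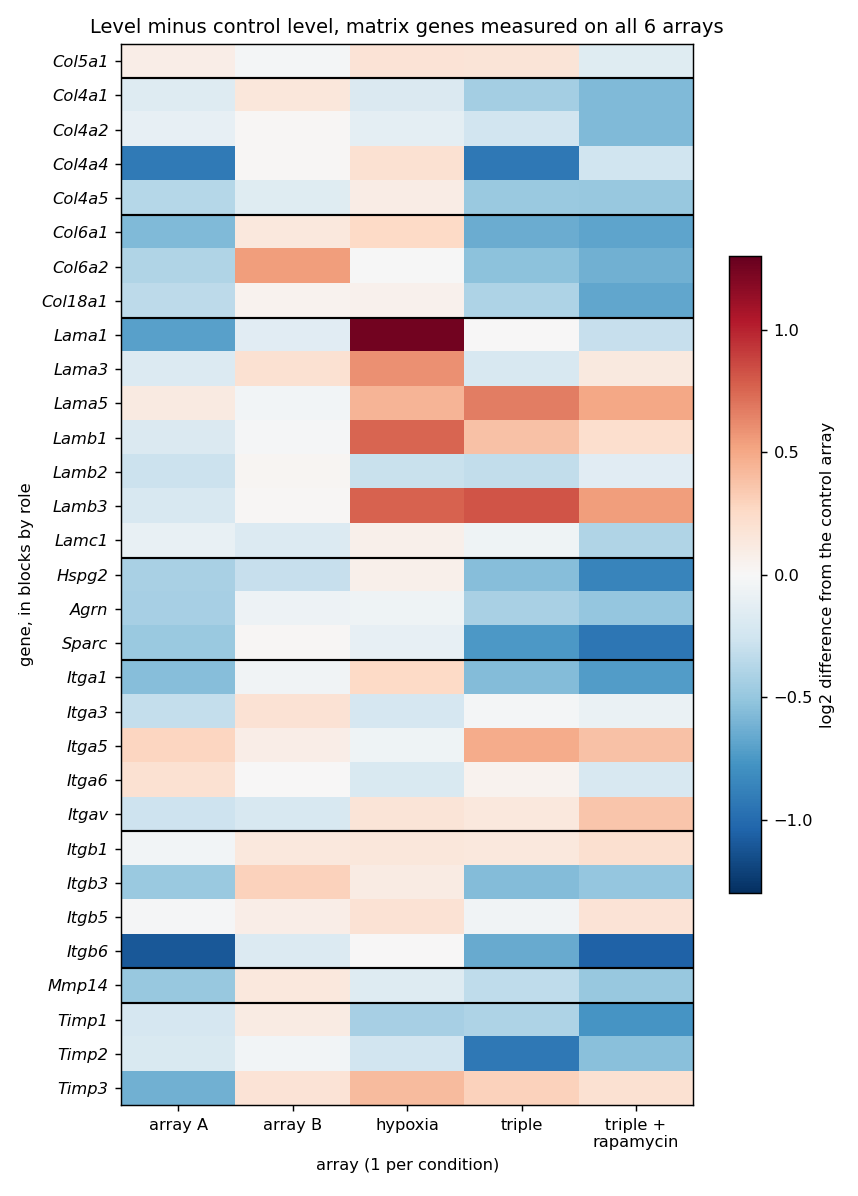
Log2 level of each gene on 5 arrays minus its level on the control array, for the 31 genes well above background on all 6 arrays, in blocks by role (collagens, laminins, linkers, integrins, protease and inhibitors). Columns are arrays, 1 per condition, red is above and blue below control. Most rows are blue on array A, with Itgb6 lowest at -1.10, and near white on array B, and Lama1 in hypoxia is the most red cell at 1.26.

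The heat map shows that the rows which are blue on array A tend to be blue again on both triple arrays, and the 6 arrays were therefore grouped by stimulus. This grouping was chosen after the values were seen. Of 30 genes without a marked spot that were measured on all arrays, 12 were lower on each of the 3 arrays with the stimulus of array A than on each of the 3 without it, 40.0%, where 17.7% of all 14991 genes measured on all arrays were. They were Col4a4, Col4a5, Col6a1, Col6a2, Col18a1, Hspg2, Agrn, Sparc, Itga1, Itgb3, Itgb6 and Mmp14. In the other direction stood 1 gene, Itga5, the fibronectin receptor chain, where 13.1% of all genes did. Among brighter genes, with a mean level above -2, it was 11 of 28 (39.3%) against 18.4% of 14013. For the stimulus of array B the same count was 0 higher and 0 lower (all genes 2.85% and 2.43%). For 1% oxygen 6 genes were higher on all 3 arrays, Lama5, Lamb1, Lamb3, Itgav, Itgb1 and Timp3 (all genes 9.93%), and 3 lower, Col4a2, Timp1 and Timp2 (all genes 16.0%). Of the 16 cell type markers measured on all arrays, 5 were lower on the same 3 arrays (Lrp2, Aqp1, Csf1r, Synpo and Aqp2) and Cd68 was higher. Lrp2, the endocytic receptor of the proximal tubule, had 3.53 on control, 2.85 on array A, 3.34 on array B, 3.74 under hypoxia, 2.43 under triple stimuli and 2.03 with rapamycin, and Cd68, a macrophage and lysosome marker, -0.87, 1.05, -0.82, -0.57, 0.52 and -0.27. The part of cell state or other cells in the matrix gene values was not tested. The 3 groupings share both triple arrays, on which all stimuli are present.

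**Figure D2:**
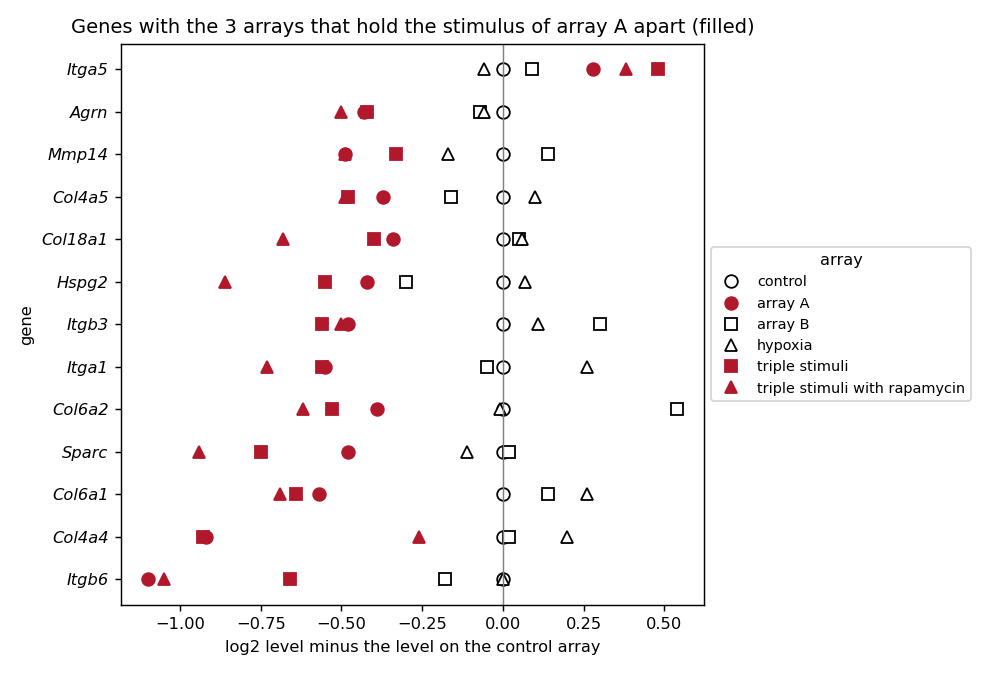
Log2 level minus the control level on each of the 6 arrays (points) for the 13 genes whose 3 arrays with the stimulus of array A (filled: array A, triple stimuli, triple stimuli with rapamycin) do not overlap the 3 without it (open: control, array B, hypoxia). In 12 genes all filled points lie to the left, and in Itga5 to the right.

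Type IV collagen forms the network of every basement membrane, from chains that are encoded in head-to-head gene pairs. Col4a1 and Col4a2 encode the chains found in all basement membranes. Their RefSeq starts on mouse build GRCm38.p6 enclose 22 bases, at chr8:11312805-11312826, which are shown because the starts lie so close together.
Col4a1 and Col4a2: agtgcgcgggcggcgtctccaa
The levels of Col4a1 were 3.05 on control, 2.88 on array A, 3.20 on array B, 2.86 under hypoxia, 2.61 under triple stimuli and 2.48 with rapamycin. Those of Col4a2, in the same order, were 3.25, 3.14, 3.27, 3.12, 3.0 and 2.68. Both were lowest with rapamycin, at 1.49-fold below control in each gene, and in both the arrays at 1% oxygen lay below the others. The gap was small, 2.86 under hypoxia against 2.88 on array A for Col4a1, and 3.12 against 3.14 for Col4a2. The 10 spots of Col4a1 gave SDs from 0.0459 to 0.0847 per array.

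Col4a4 and Col4a5 belong to the chains of the mature glomerular and distal tubular membrane. Col4a4 (probe on mm9 chromosome 1, 82447879 to 82447938) stood at -0.77 on control, -1.69 on array A, -0.75 on array B, -0.57 under hypoxia, -1.70 under triple stimuli and -1.03 with rapamycin. It was low on array A and under triple stimuli, 1.89-fold and 1.90-fold below control, and lay between these and the rest with rapamycin. Another probe of the gene, well above background on 4 arrays, did not separate the arrays in this way, at -2.28 on control, -2.59 on array A, -2.31 on array B, -2.76 under hypoxia, -2.93 under triple stimuli and -2.43 with rapamycin. Triple stimuli were 2.19-fold below hypoxia, but -0.69 on the log2 scale with normexp background correction, which ended the call. Col4a5 had 1.17, 0.80, 1.01, 1.27, 0.69 and 0.68 in the same order of arrays, lowest on the 3 with the stimulus of array A. Its neighbour Col4a6, whose RefSeq start lies 1343 bases from that of Col4a5, was near background throughout, from -3.24 to -2.22.

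Col6a1 and Col6a2 encode chains of type VI collagen, a filament between the basement membrane and the interstitial matrix, and Col18a1 the basement membrane collagen that yields endostatin. Col6a1 (mm9 chromosome 10, 76171538 to 76171597) had levels of 2.86 on control, 2.29 on array A, 3.0 on array B, 3.12 under hypoxia, 2.22 under triple stimuli and 2.17 with rapamycin. The low and the high 3 were separated by a gap, since the highest of the low arrays was 2.29 and the lowest of the others 2.86. Triple stimuli were 1.87-fold below hypoxia. Col6a2 had the same 3 arrays low, at -2.30, -2.69, -1.76, -2.31, -2.83 and -2.92 in that order, though close to background. Col18a1, at 5.95, 5.61, 6.0, 6.01, 5.55 and 5.27, was 1.61-fold below control with rapamycin, and its other probe gave -0.55 on the log2 scale against -0.68. The fibrillar Col5a1 stayed between 1.81 and 2.15 on all 6 arrays.

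In the RefSeq promoter table for GRCm38.p6, 35 of the 49 genes had an entry, and the 250 bases before each start were searched on both strands. The motif of the stress-activated factor AP-1 (TGACTCA, or TGAGTCA on the other strand) stood in 3 of the 35, Col6a1, Mmp10 and Mmp13, and in 4.46% of all 32851 windows. The window of Col6a1, chr10:76726045-76726294 on the minus strand, is shown for its AP-1 letters (in capitals), which begin 90 bases before the start.
Col6a1: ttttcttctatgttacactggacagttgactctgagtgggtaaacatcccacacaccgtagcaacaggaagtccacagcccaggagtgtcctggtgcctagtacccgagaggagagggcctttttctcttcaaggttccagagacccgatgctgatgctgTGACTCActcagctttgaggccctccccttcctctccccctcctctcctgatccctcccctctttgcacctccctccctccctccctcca
A match is a run of letters and not a measured binding site. Of the 3 genes, Col6a1 alone was above background.

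Laminins are trimers of an alpha, a beta and a gamma chain that give the basement membrane its first scaffold. In hypoxia 6 of the 7 measured chains were above control and 1 below, where 53.8% of all genes were below. The median of the chains was 0.58, against -0.02 over all genes, although only Lama1 reached 2-fold. Lama1, the alpha chain of early epithelial membranes (mm9 chromosome 17, 68171924 to 68171983), had levels of -0.01 on control, -0.72 on array A, -0.16 on array B, 1.24 under hypoxia, -0.01 under triple stimuli and -0.31 with rapamycin. Hypoxia stood alone as high, 2.39-fold above control and 2.38-fold above triple stimuli. The probe of Lama1 lies in the first 64 of 384 rows of spots, where 9.38% of all genes were 2-fold higher in hypoxia, against 2.04% in the last 64 rows. The part of spot position in this value was not tested, since the median of those rows was -0.01 and centring on it moves no value by more.

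Lamb1 and Lamb3 encode beta chains, the first of widespread laminins and the second of the laminin of epithelial anchoring structures. Lamb1 (mm9 chromosome 12, 32014411 to 32014470) had 4.84 on control, 4.65 on array A, 4.82 on array B, 5.60 under hypoxia, 5.22 under triple stimuli and 5.06 with rapamycin. Lamb3 (mm9 chromosome 1, 195170009 to 195170068) had 1.26, 1.05, 1.28, 2.03, 2.08 and 1.80 in that order. In both genes the 3 arrays at 1% oxygen were above the 3 at 20%, and hypoxia was 1.69-fold above control for Lamb1 and 1.70-fold for Lamb3. Lama5, the main alpha chain of mature kidney membranes, also had its 3 high arrays at 1% oxygen, with 4.78, 4.90 and 4.74 on control, array A and array B, and 5.22, 5.45 and 5.28 in hypoxia, triple stimuli and with rapamycin. Lama3, the partner of Lamb3, was highest in hypoxia, at -1.70 against -2.50 to -2.09 on the other 5 arrays. Lamb2 (0.88 to 1.23) and Lamc1 (2.80 to 3.26), the common gamma chain, stayed within narrower ranges.

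**Figure D3:**
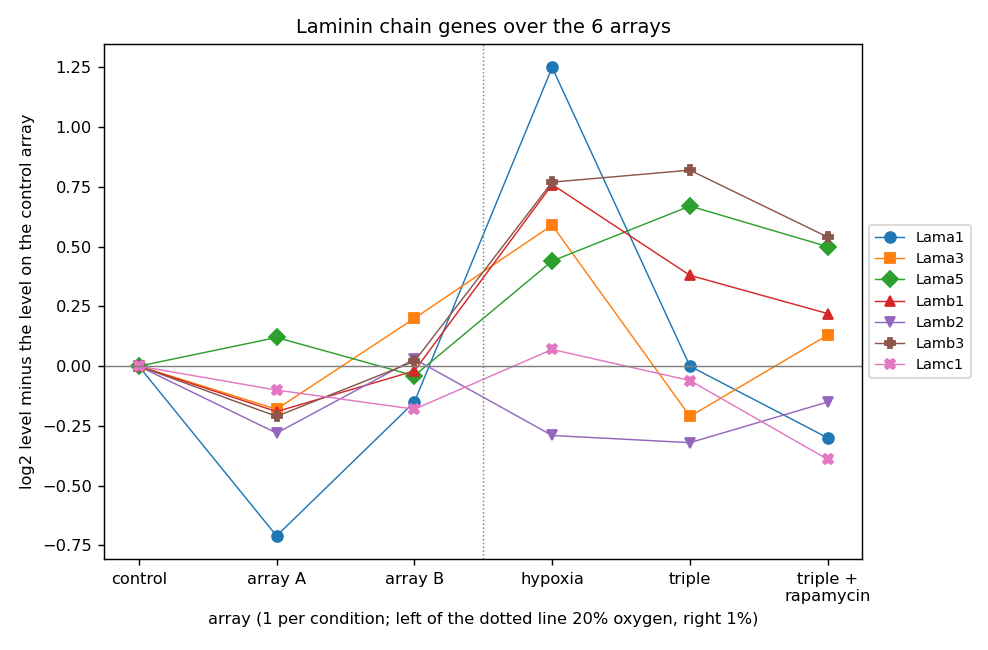
Log2 level minus the control level (vertical axis) of the 7 measured laminin chains on each of the 6 arrays (horizontal axis, 1 array per condition; lines join the points of a gene and imply no order). Lama5, Lamb1 and Lamb3 lie above their 3 arrays at 20% oxygen on all 3 arrays at 1%, and Lama1 is high in hypoxia alone, at 1.26.

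The hypoxia response core was searched in the form ACGTG only, or CACGT on the other strand. This form was found in the windows of 5 of the 35 genes with an entry, Col1a2, Col4a4, Col5a1, Mmp14 and Timp1, and in 16.6% of all windows. The form searched was not among the letters of the windows of Lamb1, Lamb3 or Itga2. The variant GCGTG, or CACGC on the other strand, was not searched, and it stands in the windows of these genes. The window of Lamb1, chr12:31265043-31265292 on the plus strand, and that of Itga2, chr13:114932101-114932350 on the minus strand, are shown as those of genes with high values in hypoxia. Capitals mark a CCAAT box 187 bases and GC boxes (CCGCCC, or GGGCGG) 84 and 75 bases before the start of Lamb1. Itga2 held none of the 4 motifs in the forms searched.
Lamb1: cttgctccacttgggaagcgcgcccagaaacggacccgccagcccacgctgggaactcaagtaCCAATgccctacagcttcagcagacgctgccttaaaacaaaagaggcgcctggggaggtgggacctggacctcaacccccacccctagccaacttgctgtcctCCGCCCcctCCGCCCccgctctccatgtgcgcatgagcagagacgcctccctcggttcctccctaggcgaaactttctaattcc
Itga2: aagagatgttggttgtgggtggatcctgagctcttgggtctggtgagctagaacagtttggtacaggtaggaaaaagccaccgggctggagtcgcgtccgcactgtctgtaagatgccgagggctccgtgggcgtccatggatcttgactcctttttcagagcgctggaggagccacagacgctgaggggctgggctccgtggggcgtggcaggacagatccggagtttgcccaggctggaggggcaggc
Over all windows a CCAAT box (CCAAT, or ATTGG) stood in 33.8% and a GC box in 32.7%, and among the 35 genes in 12 and 21.

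Among the linkers and other matrix proteins, Hspg2 encodes perlecan and Agrn agrin, both heparan sulphate proteoglycans, and Sparc a collagen-binding glycoprotein that governs collagen assembly. All 3 were lower on the 3 arrays with the stimulus of array A. Sparc (mm9 chromosome 11, 55208939 to 55208998) had 8.44 on control, 7.96 on array A, 8.46 on array B, 8.33 under hypoxia, 7.69 under triple stimuli and 7.50 with rapamycin. The array with rapamycin was 1.93-fold below control by the brightest probe and -1.29 on the log2 scale by the other, so the call turned on the probe. Under triple stimuli it turned on the probe as well, at -0.75 from control by the brightest and -1.05 by the other. Hspg2 had 3.82, 3.40, 3.52, 3.89, 3.27 and 2.96 in that order. Agrn had 6.59, 6.16, 6.52, 6.53, 6.17 and 6.09. The nidogen gene Nid2 was at -2.81, -3.21 and -2.75 on the arrays at 20% oxygen and not well above background on the 3 at 1%, which puts hypoxia and triple stimuli each at least 1.21-fold below control. The lowest signal well above background was itself higher on those arrays, -3.08 in hypoxia against -3.65 on control.

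The upstream window of Sparc, chr11:55420081-55420330 on the minus strand, is shown as that of a gene low on the arrays with the stimulus of array A. It held none of the 4 motifs in the forms searched.
Sparc: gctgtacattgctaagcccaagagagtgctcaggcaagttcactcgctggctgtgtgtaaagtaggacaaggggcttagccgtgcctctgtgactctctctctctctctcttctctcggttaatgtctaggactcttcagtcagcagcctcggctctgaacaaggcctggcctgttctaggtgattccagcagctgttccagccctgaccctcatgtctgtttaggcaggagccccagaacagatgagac

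Among integrin alpha chains, Itga1 and Itga2 each pair with Itgb1 to bind collagens, and the members differed in direction. Itga2 (mm9 chromosome 13, 115626714 to 115626773) had -2.93 on control, -2.63 on array B, -1.72 in hypoxia, -2.45 under triple stimuli and -1.90 with rapamycin, and was not well above background on array A. Hypoxia was 2.31-fold and the array with rapamycin 2.05-fold above control. These levels are near background, and normexp correction gave 0.66 and 0.56 on the log2 scale, which ended both calls, and quantile normalization 1.06 and 0.90, which ended the second. Itga1 (mm9 chromosome 13, 115756765 to 115758419) had -0.06, -0.61, -0.11, 0.20, -0.62 and -0.79 over control, array A, array B, hypoxia, triple stimuli and rapamycin, low on the 3 arrays with the stimulus of array A. On array A the difference from control was -0.55 by this probe and -1.11 or lower by the other, which was well above background on 3 arrays, so a 2-fold call there depends on the probe. Itga5, the chain that binds fibronectin, had -0.48, -0.20, -0.39, -0.54, 0.00 and -0.10, with the same 3 arrays high.

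Itga3 and Itga6 bind laminins and Itgav, among others, vitronectin. By the brightest probe, Itga3 lay between 2.80 and 3.30 and Itga6 between 3.85 and 4.26. Itgav was at 0.48, 0.21 and 0.27 on the arrays at 20% oxygen and at 0.65, 0.62 and 0.84 on those at 1%. The probes of Itga6 disagreed. Its other probe, which the files assign to the transcript ENSMUST00000139760, had -1.02 for triple stimuli against control where the brightest probe had 0.05, a gap of 1.07, so that the direction for this gene depends on the probe.

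Of the beta chains, Itgb6 encodes the epithelial chain that, with Itgav, activates TGF-beta. Itgb6 (mm9 chromosome 2, 60438632 to 60443247) had levels of 1.57 on control, 0.47 on array A, 1.39 on array B, 1.57 under hypoxia, 0.91 under triple stimuli and 0.52 with rapamycin. Array A was 2.14-fold and the array with rapamycin 2.08-fold below control, and the 3 arrays with the stimulus of array A lay below the other 3 with no overlap. Its other probe gave log2 differences from control of -1.23 on array A and -1.21 with rapamycin. For triple stimuli against hypoxia the other probe gave -1.1, past the call, where the brightest probe gave -0.66. With normexp correction the brightest probe had -1.0 with rapamycin, just short of the call. Itgb3, which also pairs with Itgav, had -0.39, -0.87, -0.09, -0.28, -0.95 and -0.89, with the same 3 arrays low. Itgb1, the partner of most alpha chains, ranged from 3.28 to 3.53, and its 3 arrays at 1% oxygen exceeded the others by less than the rounding of these levels. Itgb5 ranged from 3.93 to 4.17.

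Mmp14, which cleaves collagen at the cell surface, had 0.44 on control, -0.05 on array A, 0.58 on array B, 0.27 under hypoxia, 0.11 under triple stimuli and -0.05 with rapamycin, low on the arrays with the stimulus of array A at up to 1.41-fold below control. Its inhibitors did not follow 1 pattern. Timp1 had 4.57, 4.35, 4.68, 4.14, 4.17 and 3.80, lower on the 3 arrays at 1% oxygen and 1.70-fold below control with rapamycin. Timp2 (mm9 chromosome 11, 118163146 to 118163205) had 6.52, 6.32, 6.48, 6.27, 5.59 and 5.98, and was lowest under triple stimuli, at -0.94 on the log2 scale or 1.91-fold below control, with the other probe at -0.66. Timp3, which is bound to the matrix, had 0.81, 0.19, 0.99, 1.22, 1.11 and 1.01, low on array A at 1.54-fold below control.

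In 9 genes a second probe was also well above background on all arrays, Agrn, Col18a1, Hspg2, Itga6, Itgav, Itgb1, Itgb6, Sparc and Timp2. Over 63 pairs of differences the median gap between the probes was 0.13. The 15 differences of at least 0.5 by the brightest probe all had the same sign by the other. By the brightest probe 5 of the 9 were low on all 3 arrays with the stimulus of array A, and by the other probe the same 5 were, Agrn, Col18a1, Hspg2, Itgb6 and Sparc.

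**Figure D4:**
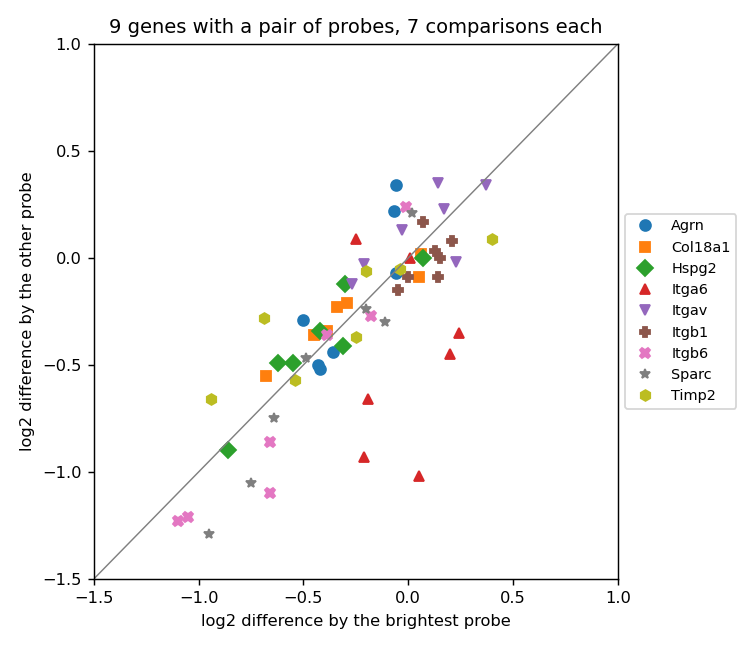
Log2 difference by the other probe (vertical) against that by the brightest probe (horizontal) in each of 7 comparisons, for the 9 genes with a pair of probes well above background on all arrays; the line marks equal values. Most points lie near the line, and those of Itga6 lie furthest below it, by up to 1.07.

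Beyond the list, 164 other genes of matrix and adhesion were examined in 8 lists, of which 96 were well above background on at least 1 array. On array A 1 of 89 that entered was higher than control and 5 lower, with a median of -0.17, where 1.56% of all genes were higher and 0.909% lower. In hypoxia 6 of 89 were higher and 0 lower (all genes 4.42% and 0.469%), and under triple stimuli 7 of 92 higher and 4 lower (5.08% and 1.72%). On array B 0 of 86 were higher and 1 lower (0.31% and 0.281%). With rapamycin against triple stimuli 0 of 85 were higher and 3 lower (1.95% and 2.15%), and against control 0 of 88 and 4 (4.54% and 1.78%). Several of the higher ones were measured on a few arrays only and are bounds, such as Col19a1 and Col20a1 under triple stimuli, with probes in the first 64 rows of spots. Among basement membrane genes the integrin ligand Npnt fell on array A and under triple stimuli, with levels of -0.68 on control, -1.73 on array A, -0.48 on array B, -1.21 under hypoxia and -2.36 under triple stimuli.

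Bsg, an inducer of metalloproteases, was 1.06 and the protease Adamts9 1.17 above control in hypoxia. For triple stimuli against hypoxia, 3 of 88 genes of the 8 lists were higher and 6 lower (all genes 3.5% and 3.03%), with a median of -0.11. Plaur, the receptor of urokinase, was 1.18 higher in that comparison. Tgfbi and Thbs1, of the matrix glycoproteins, had differences of -1.94 and -1.48 for triple stimuli against hypoxia. Against control they had larger differences on array A, -2.43 and -1.99. Both were also lower than control under triple stimuli (-1.22 and -1.78) and with rapamycin (-1.38 and -1.76). Of the focal adhesion genes 0 of 20 were higher or lower on array A, in hypoxia or on array B, and Tns1, an actin-binding adaptor, was 1.28 below control under triple stimuli (levels 2.48 and 3.76). The integrin chain Itgb7, of white blood cells, was higher on array A than on control, at 0.62 against -0.49.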

How the data were processed

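Total RNA of each condition was labelled with Cy3 and hybridised to 1 Agilent array. Per the submitters' processing notes the authors read the scans with Agilent Feature Extraction 10.7.3.1, and per the file headers the scanner files hold 1 background-subtracted and detrended intensity for each spot, not scaled between arrays. The deposited value table holds a ratio of that intensity to the 75th percentile over the array's spots, and its column medians were 0.0505 to 0.0562. Its scale was read from its values, and the disagreement of array labels came from matching its columns to the scanner files (SD of the log2 ratio at most 2.89e-07 for a match, at least 0.49 otherwise). From the deposited intensity, log2 levels relative to the 75th percentile of the non-control spots were computed here, and spots of 1 probe were averaged.

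Of the 55681 probes, 323 with an outlier mark on any array were left out, and each gene was represented by its brightest probe. A gene entered a comparison when most spots of its probe were well above background on at least 1 of both arrays, as 19046 gene names were on any array and 14991 on all 6. A dim side was raised to the lowest level well above background on that array, so such a difference is a bound. The rule for names was that every member is accounted for, and that of each other list up to 4 genes with the largest differences of at least 2-fold per comparison may be named. The members and lists were chosen with earlier results of these data known. Probe positions are on mm9 as the files give them, and exons and untranslated regions were not annotated. Promoter sequences are from RefSeq on GRCm38.p6. The difference and its call were tested on simulated data for hypoxia against control, where 100% of 197 genes given a change were recovered among 17260. Only bright genes were changed, each by clearly more than 2-fold and with little added noise. The test therefore checks the computation and does not cover dim genes or differences near 2-fold. Python 3.11.15, pandas 2.3.3, R 4.3.3 and limma 3.58.1 (normexp, offset 50) were used. The 9 alternatives planned and 1 added are described in the closing section.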

Additional observations from a re-analysis of the deposited data

How the results depend on the processing

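No paired analysis was possible because each condition has 1 array. With 1 array a side no left-out replicate, error or p-value can be had, and the number of arrays and the signal over background limit every value. The differences of Itgb6, Itga2, Lama1 and Col4a4 in the comparisons where each was called, the only single genes put through the alternatives, kept their direction under quantile normalization, normexp correction, the median over probes, the filters on dim and bright genes (where they passed), no floor, centring within bands of rows, the value table or leaving out marked spots in place of probes. In all, 79 counts of genes kept within 1.5 times under an alternative and 16 did not, and of the single differences 54 stayed and 7 moved by more than the spot error. Many of those that stayed could not have moved. The value table is the same intensity over an array constant. No floor, the filters and leaving out marked spots do not alter a probe that is measured on both arrays and unmarked. The median over probes changes nothing for Lama1 and Itga2, which have 1 probe each. The causes were not tested.

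At 1.5-fold in place of 2-fold, the genes called different numbered 5 on array A (all lower; 4.61% of all genes were), 4 in hypoxia (all higher; 8.08%), 7 under triple stimuli (2 higher and 5 lower; 11.0% and 7.68%), 11 for triple stimuli against hypoxia (all lower; 7.95%), 1 for rapamycin against triple stimuli (higher; 4.17%) and 10 for rapamycin against control (1 higher and 9 lower; 10.9% and 8.43%). With normexp they numbered 1 in hypoxia (Lama1 higher; 2.69% of all genes were) and 1 under triple stimuli (Timp2 lower; 0.644%). They numbered 1 for triple stimuli against hypoxia (Lama1 lower; 1.23%) and 1 for rapamycin against control (Sparc lower; 0.744%), with Itgb6 at -1.0 just short. With normexp 1 gene was also low on all 3 arrays with the stimulus of array B. With no floor 3 genes were called lower on array A (Col1a1, Itga2 and Itgb6; 2.06% of all genes were) and 1 under triple stimuli (Nid2; 4.07%), since dim values then count as measured. Nid2 was then also called lower in hypoxia (2.16% of all genes were) and with rapamycin against control (3.75%). Among bright genes 1 was called in hypoxia (higher; 2.13% of all bright genes were) and 1 for rapamycin against control (lower; 1.62%), where Itga2 is not tested. Quantile normalization left 1 for rapamycin against control (Itgb6 lower; 2.23% of all genes were).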
